A study of Mus musculus with 3 samples.

Results

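The 10 genes Grm6, Trpm1, Gpr179, Nyx, Lrit3, Rgs11, Gnao1, Gng13, Prkca and Pcp2, named for their role at the ON bipolar cell synapse, were followed across cell types and Sstr2 genotypes. The choice was made by name, with earlier results of these data known, and 10 of 10 were listed among the 17849 genes of the P14 mouse retina library, the 17851 of the P0 library and the 18823 of the explant library. At P14, 9 of the 10 genes had their highest level in bipolar cells, in every case without overlap with the next cell type, and Lrit3 had its highest level in cones. Of all 17849 genes, 2.31% peaked in bipolar cells in that way, and of the 10356 genes with at least 100 UMIs, 3.46% did. For Nyx, Rgs11, Gnao1 and Gng13 the next type by mean was amacrine cells, of which each heterozygous retina gave only 4. Counts there were too few to settle the lack of overlap for Nyx and Rgs11. For Gng13 the place of amacrine cells rests on a single UMI. Within bipolar cells, Grm6, Trpm1, Gpr179, Gng13, Prkca, Pcp2 and Gnao1 were higher in cells carrying ON markers than in cells carrying OFF markers, and Rgs11 did not pass. The filter on low counts left out Nyx and Lrit3, and 9.22% of the 2550 genes it kept were called. None of the 9 genes tested in P14 bipolar cells passed the test between Sstr2 genotypes. Of all 8787 genes tested there, 0.091% were called for knockout against wild type and 0.137% for knockout against heterozygous.

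Photoreceptors release glutamate in darkness, and ON bipolar cells read it with the metabotropic receptor mGluR6, the product of Grm6. The receptor acts through the G protein subunit Gαo (Gnao1) and its βγ partners to close the cation channel Trpm1, so that a fall in glutamate at light onset opens the channel and depolarises the cell. Gpr179, nyctalopin (Nyx) and Lrit3 each help to gather parts of this complex, which includes the deactivating RGS proteins (Rgs7, Rgs11), at the dendritic tip. Loss of several of these genes is known to cause complete congenital stationary night blindness. Prkca, protein kinase C alpha, is the usual label of rod bipolar cells, and Pcp2, a GoLoco-domain regulator of Gαo, marks rod bipolar and some cone ON bipolar cells.

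The study asked whether somatostatin signaling through Sstr2 alters retinal neurogenesis, and counted RNA molecules (unique molecular identifiers, UMIs) in single cells pooled by MULTI-seq, which tags the cells of each sample with its own lipid-bound barcode. The P14 library held 3298 cells of 1 Sstr2+/+ (wild type), 2 Sstr2+/- (heterozygous) and 2 Sstr2-/- (knockout) samples, and the P0 library held 5706 cells of the same 1, 2 and 2, all littermates labelled C57BL/6 / CD1 and descended from a C57BL/6NCrl line with the Sstr2em1(IMPC)Mbp allele that was crossed to CD1 mice. The explant library held 5607 cells of wild-type CD1 retinas taken at embryonic day 14 and cultured for 6 days, without the rest of the eye, with 0, 5, 50 or 500 nM of an Sstr2 agonist, 2 samples per dose. Each sample is called a retina or an explant below, although how many eyes it held is not given in the sources used here, so p-values measure only the spread between these samples, which may be technical.

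Sstr2 RNA did not fall with the genotype labels. The study reports raised Sstr2 RNA in neurogenic progenitors of P0 mutants, and proposes that Sstr2 signaling may hold down its own transcription. At P0, over all cell types, the Sstr2 level was 14.1 UMIs per 1000000 UMIs counted (CPM) in the wild-type retina. It was 22.3 and 33.5 in heterozygous retinas and 41.0 and 43.3 in those labelled knockout, so the wild type was lowest. At P14 the 5 retinas held 2, 2, 0, 1 and 13 Sstr2 UMIs in the same order, the 13 in the second retina labelled knockout. All 18 lay in cells annotated as amacrine, and the 578 bipolar cells held 0. The assay counts the 3′ ends of transcripts and the position of the deleted part is not given in the sources used here, so these counts do not check the labels, and every genotype below is the labelled one. Total UMIs per sample ran from 1266730 to 5886669 at P14, from 8822880 to 10793649 at P0 and from 1281682 to 4237324 in explants. The P14 and P0 libraries shared 7 cell barcodes, P14 and explants 4, and P0 and explants 9.

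Promoters of the receptor, its channel and the member counted in cones are shown first, since the report turns on these genes. Each is the 100 bases before the RefSeq transcription start (GRCm38.p6), written 5′ to 3′ on the gene's strand, and capitals mark TAATCC or its reverse complement GGATTA, the core of the Crx and Otx2 binding motif, searched on both strands. Grm6 is at chr11:50850585-50850684 (plus strand), Trpm1 at chr7:64153735-64153834 (plus strand) and Lrit3 at chr3:129804137-129804236 (minus strand).
Grm6: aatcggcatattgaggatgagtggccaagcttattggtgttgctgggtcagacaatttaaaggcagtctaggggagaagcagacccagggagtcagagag
Trpm1: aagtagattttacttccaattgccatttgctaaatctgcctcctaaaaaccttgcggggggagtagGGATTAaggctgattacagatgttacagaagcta
Lrit3: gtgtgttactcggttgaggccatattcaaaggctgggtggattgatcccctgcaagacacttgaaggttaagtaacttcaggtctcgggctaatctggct

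Over the full windows of 300 bases (250 before the start, 50 after), 9 of the 10 genes had an entry, and the TAATCC core was found in 1 of the 9, Trpm1, where its first base lay at -34 from the start. The same core stood in a window of 8.14% of all 27025 genes, and in 7.06% of all 32851 RefSeq windows. The palindromic homeodomain core TAATTA was found in 1 of the 9 as well, Pcp2, at -101 in its window. It stood in 6.12% of all genes and 5.29% of all windows. These matches describe letters in a window and not binding. In GENCODE M21 on the same build, Grm6 lies at chr11:50850685-50866208, Trpm1 at chr7:64153835-64269775 and Lrit3 at chr3:129787881-129804030. The gene models of Pcp2, Gng13, Rgs11 and Prkca overlap a protein-coding gene on the opposite strand (Pet100, Chtf18, Arhgdig and Apoh), and Trpm1 holds Mir211 on its own strand. Whether counting used the strand is not given in the sources used here.

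The deposited annotation gave 5 cell types at P14, of which bipolar cells made up 578 cells and 3169840 UMIs. They numbered 207 in the wild type, 91 and 29 in heterozygous retinas and 159 and 92 in the retinas labelled knockout. The label was checked with 8 bipolar markers outside the list (Vsx1, Otx2, Cabp5, Scgn, Isl1, Grik1, Lhx4 and Gsg1), whose summed level was 3369 CPM in bipolar cells, 283 in rods, 337 in cones, 58.5 in Müller glia and 80.4 in amacrine cells. All 8 were counted in bipolar cells. The 68 cells annotated as amacrine carried amacrine markers at 2199 CPM, horizontal cell markers at 2836 and ganglion cell markers at 646. Horizontal markers there ran from 0 in the second heterozygous retina to 4419 CPM in the first. Values for that type therefore cover more than amacrine cells, in a mix that differs between retinas. Levels below are CPM of the summed counts of a cell type in a retina, set side by side for 1 gene at a time as a description without a test, since the annotation came from clusters of the same cells.

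Grm6, the receptor, was counted in P14 bipolar cells at 778 CPM in the wild type, 843 and 765 in heterozygous retinas and 794 and 840.2 in those labelled knockout. The mean was 804 ± 35.9 CPM (SD, n = 5), and 86.2% of all 2956 Grm6 UMIs at P14 came from bipolar cells. Rods followed at 39.3 ± 5.97 CPM, 20.5 times lower and not overlapping either bipolar cells or Müller glia, the type after them. Müller glia, cones and amacrine cells, at 19.7, 10.6 and 8.82 CPM, overlapped in that order.

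Trpm1, the channel, was the steadiest of the 10 genes between retinas. Its bipolar level was 2941 CPM in the wild type, 3127 and 3059 in heterozygous retinas and 3062 and 2974 in those labelled knockout, a mean of 3033 ± 74.6 (SD, n = 5) with a coefficient of variation of 2.46%. The next type, rods, stood at 38.2 ± 8.13 CPM, 79.3 times lower, and overlapped Müller glia at 30.0. Of the 10037 Trpm1 UMIs, 95.1% lay in bipolar cells.

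Gpr179, the orphan receptor that anchors the RGS complex, was at 497 CPM in the wild type, 541 and 533 in heterozygous retinas and 642 and 571 in those labelled knockout. Müller glia came next at 28.2 ± 10.1 CPM against 557 ± 54.2 in bipolar cells, 19.7 times lower, and overlapped rods at 12.6. Nyx, the leucine-rich protein nyctalopin, was the sparsest of the genes that peaked in bipolar cells, with 150 UMIs there: 55.9 CPM in the wild type, 42.0 and 48.5 in heterozygous retinas and 34.9 and 48.2 in those labelled knockout. It had 0 UMIs in the 115 cones, which allows a level of up to 2.49 CPM at 3 counts, and 15 UMIs in 2271 rods. Amacrine cells were the next type for Nyx, at 5.79 ± 6.25 CPM over 4 UMIs and 0 to 15.0 between retinas. Those sums were too shallow in the heterozygous retinas to read a level of 0 as absence.

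Lrit3, the other leucine-rich protein of the list, was almost uncounted in bipolar cells, where 578 cells held 5 UMIs. It was highest in cones, at 57.2 CPM in the wild type, 89.4 and 135 in heterozygous retinas and 95.8 and 79.2 in those labelled knockout, a mean of 91.3 ± 28.5 (SD, n = 5) over 99 UMIs. Every retina's cones lay above every retina's rods, whose mean was 10.8 ± 3.95 CPM over 92 UMIs, 8.45 times lower. Of all 17849 genes 1.31% peaked in cones without overlap with the next type, and of the 10356 with at least 100 UMIs 1.82% did. Müller glia, amacrine and bipolar cells were at 2.61, 1.55 and 1.15 CPM and overlapped. In cones, 50.4% of cells held an Lrit3 UMI at a median depth of 10245 UMIs per cell, against 3.92% of rods at 3374 and 0.865% of bipolar cells at 3939.5. With every cell thinned to 1500 UMIs, the shares were 8.70%, 1.34% and 0.350%.

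Rgs11, which speeds the shut-off of Gαo, was at 157 CPM in the wild type, 119 and 167 in heterozygous retinas and 176 and 157 in those labelled knockout. It was the member least set apart from another type. Amacrine cells followed at 59.7 ± 45.8 CPM, 2.60 times below the bipolar mean of 155 ± 21.7. They ranged from 0 to 116 between retinas, and the lowest bipolar level was 119. The heterozygous retinas gave only 4 amacrine cells each, of 66533 and 12722 UMIs, so amacrine levels there rest on few counts. Gnao1, the α subunit itself, was also shared between types. Its bipolar level was 940.4 CPM in the wild type, 1078 and 953 in heterozygous retinas and 827 and 1051 in those labelled knockout. Amacrine cells followed at 354 ± 93.7 and Müller glia at 141 ± 17.9, with no overlap between the 3 types, and cones at 53.3 overlapped rods at 38.9.

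Gng13, the γ subunit that pairs with Gnb3, had the widest gap to the next type by mean, 89.1 times. Bipolar cells were at 2306 ± 421 CPM (SD, n = 5) and amacrine cells at 25.9 ± 31.9. That amacrine mean leans on the second heterozygous retina, whose 78.6 CPM is a single UMI. Pooled over retinas, amacrine cells were the lowest type, at 12.97 CPM over 10 UMIs, and rods followed bipolar cells at 24.9. By retina, bipolar Gng13 was 2396 CPM in the wild type, 2798 and 1977 in heterozygous retinas and 1782 and 2579.6 in those labelled knockout. Pcp2 was similarly spread, at 3422 CPM in the wild type, 3555 and 2348 in heterozygous retinas and 2174 and 3419.8 in those labelled knockout, with rods next at 48.5 ± 5.22 and 61.6 times lower. For both genes the second heterozygous retina and the first labelled knockout were the lowest of the 5.

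Prkca was at 935 CPM in the wild type, 1013 and 738 in heterozygous retinas and 1166 and 1336 in those labelled knockout, so the retinas labelled knockout were above the other 3. Rods, at 121 ± 13.7 CPM, were 8.54 times lower than the bipolar mean of 1037 ± 227 and did not overlap amacrine cells at 59.1 ± 36.2, the next type.

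**Figure D1:**
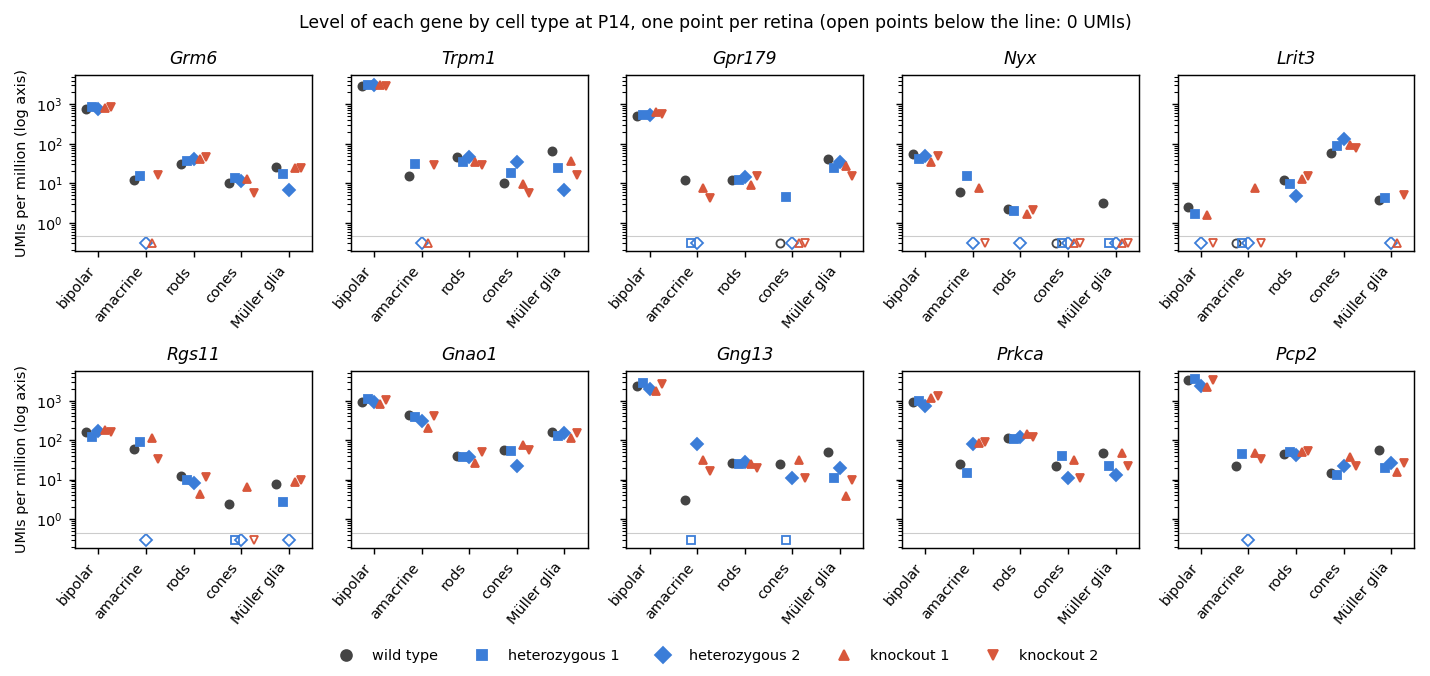
Level of each of the 10 genes in CPM (log axis) in the 5 cell types of the P14 library, with 1 point per retina, coloured by genotype; open points under the line mark 0 UMIs. The bipolar points of 9 genes sit above all other types, and Lrit3 peaks in cones at 57.2 to 135.

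Low counts of these genes in rods were set beside those of the 8 bipolar markers. The rod level of the 9 members other than Lrit3, pooled over retinas, was 1.05% to 11.3% of the bipolar level, while 7 of the 8 markers were at 1.88% to 3.60% and Otx2, which photoreceptors also use, was at 48.9%. Trpm1, Gng13 and Pcp2 were at 1.28%, 1.05% and 1.55%, below that range, and Gpr179 was inside it at 2.27%. Prkca was the highest at 11.3% (9.06% to 16.6% over retinas), followed by Rgs11 at 6.51%, Grm6 at 4.68% (3.95% to 5.52%), Gnao1 at 4.09% and Nyx at 3.88%. Free RNA and mixed droplets give such counts, and their part in the values above the markers was not tested. In Müller glia, Gpr179 was at 5.45% of its bipolar level (2.63% to 8.40%) and Gnao1 at 14.7%, while the 8 markers were at 0.435% to 4.94%.

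Per cell, the genes were compared after thinning to 1500 UMIs, which left 572 bipolar cells and dropped 6. Grm6 was then counted in 60.5% of bipolar cells, Trpm1 in 71.7%, Gpr179 in 50.7%, Gnao1 in 64.7% and Pcp2 in 63.6%. Gng13 was counted in 53.1%, Prkca in 46.3%, Rgs11 in 23.6% and Nyx in 5.94%. Without thinning the same shares ran from 19.6% for Nyx to 82.5% for Gnao1. Thinned rods, a type expected to lack most of these genes, gave 6.47% for Grm6, 6.25% for Trpm1, 8.43% for Pcp2 and 16.1% for Prkca. A bipolar cell held a median of 5 of the 10 genes, 4 to 6 over the retinas, and 5.07% held none, whereas the median rod held 0.

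Which genes were counted together in the same bipolar cell was also described at this equal depth, with no test, since all cells share a library and their retina. Prkca and Pcp2 went together most closely. Pcp2 was counted in 92.8% of the 265 cells with a Prkca UMI (83.3% to 97.9% over retinas) and in 38.4% of the 307 without one (36.0% to 41.9%), with no overlap between the ranges. Conversely, Prkca was counted in 67.6% of the 364 Pcp2 cells and in 9.13% of the 208 others. Trpm1 was counted in 84.1% of the 346 Grm6 cells and in 52.7% of the 226 others. Rgs11 stood apart: its share was 21.4% in the 304 cells with Gng13 and 26.1% in the 268 without, and its difference stayed within 10 percentage points for every other gene of the plot. Rgs11 was also the sparsest gene of the plot, counted in 23.6% of these cells. The part of that sparseness in its small differences was not tested.

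**Figure D2:**
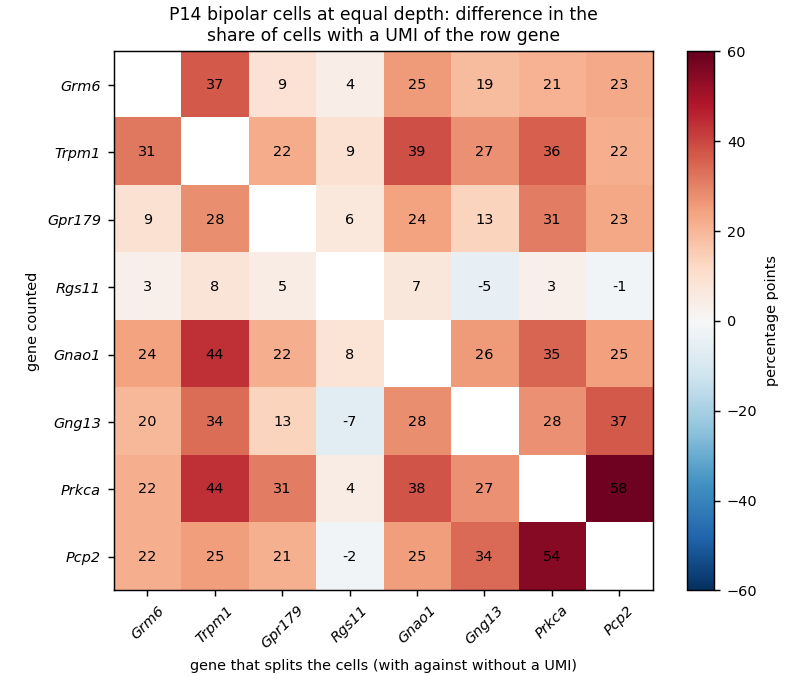
Co-detection among 8 of the genes in 572 thinned P14 bipolar cells: each square gives the share of cells with a UMI of the row gene among cells with a UMI of the column gene, minus that share among cells without it, in percentage points. Prkca and Pcp2 form the darkest pair (92.8% against 38.4% for Pcp2), and the Rgs11 row and column are pale.

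The profile of each gene was also compared with 10356 genes over 24 sums of cell type by retina, which share 1 library and differ in depth. Grm6 and Trpm1 were each other's closest match among all those genes, with a Pearson correlation of 0.982 on the log2(CPM + 1) scale, and Lhx3, a LIM homeodomain factor, was among the 3 closest of both at 0.921 and 0.940. Gng13 was closest to Pcp2 at 0.931, then to Bhlhe23 and Isl1, a pair of ON bipolar transcription factors, at 0.928 and 0.921. Prkca had Car10, Otor and Pcp2 as its 3 closest at 0.923, 0.915 and 0.904, and Pcp2 had Gm35217, Gm10287 and Otor at 0.973, 0.971 and 0.964. Nyx was closest to Cdh9 at 0.962, Gpr179 to Gm30382 at 0.928, Rgs11 to Inpp4b at 0.957 and Gnao1 to Sybu at 0.944. Lrit3 was closest to Krt18 at 0.920 and correlated negatively with all other members, from -0.29 with Gng13 to -0.72 with Gnao1.

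To ask whether the genes follow the ON pathway within bipolar cells, the cells were split by markers outside the list. ON-marker cells held a UMI of Isl1, Car8, Sebox or Vstm2b and none of Grik1, Tacr3 or Neto1, and OFF-marker cells the reverse. This split does not separate rod bipolar from cone ON bipolar cells. Differences of Prkca and Pcp2, which label rod bipolar cells, therefore cannot be assigned to ON cells as a whole. There were 342 ON-marker and 48 OFF-marker cells, while 156 carried both kinds and 32 neither, and the median cell held 3745.5, 2585, 6675.5 and 2261 UMIs in the 4 classes. The second heterozygous retina gave only 1 OFF-marker cell, of 2229 UMIs. Counts were summed per retina and class and tested with edgeR's quasi-likelihood test with the retina as a block and Benjamini-Hochberg adjustment.

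Grm6 was at 804 CPM in ON-marker cells of the wild type, 941 and 844 in heterozygous retinas and 844 and 933 in those labelled knockout, against 153, 31.0, 0, 0 and 77.4 in OFF-marker cells. The 0 in the second heterozygous retina rests on its single cell, which allows up to 1346 CPM at 3 counts. The log2 difference was 3.70 (SE 0.50; 95% interval 2.71 to 4.68; edgeR adjusted p = 2.41e-11). Trpm1 was at 2854, 3393, 3621, 2992 and 3514 CPM in ON-marker cells and at 221, 248, 0, 451 and 38.7 in OFF-marker cells, a log2 difference of 4.01 (3.04 to 4.98). Trpm1 was higher in ON-marker cells of all 5 retinas, also above that limit, whereas for Grm6 this was seen in 4 retinas and could not be read from the single cell of the second heterozygous one. Gng13 was at 2435, 3329.7, 1778, 1263 and 2856 CPM in ON-marker cells and at 85.1, 0, 0, 113 and 135 in OFF-marker cells of the same retinas. Prkca was at 916, 1053, 885, 1040.2 and 1643 CPM against 102, 31.0, 0, 45.1 and 38.7. The limit of the single cell lies above the Prkca level of ON-marker cells in the same retina. The first retina labelled knockout was the lowest for Gng13 in ON-marker cells.

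The filter on low counts kept 8 members and 2550 genes, of which 7 members (higher in ON-marker cells) and 9.22% of genes were called. The OFF-marker sums held 189226 UMIs in all, so a gene high in ON-marker cells could pass the filter through those cells alone, and the count of 7 is a description. Without the filter the same 7 of 10 members were called, where 2.43% of 15367 genes were. Gng13 had the largest value among them, 4.81 (3.73 to 5.89; edgeR adjusted p = 7.01e-16), then Gpr179 at 4.69 (3.54 to 5.84), Prkca at 4.37 (3.30 to 5.43) and Pcp2 at 3.58 (2.63 to 4.53). Gnao1 had the smallest value of the 7, 2.07 (1.25 to 2.90; edgeR adjusted p = 2.64e-05), with OFF-marker levels of 93.0 to 449 CPM. Rgs11 did not pass: 0.62 (SE 0.40; -0.16 to 1.41; edgeR adjusted p = 0.442), with 127 to 199 CPM in ON-marker cells and 0 to 449 in OFF-marker cells. These ranges overlapped. For both Gnao1 and Rgs11, however, the 449 CPM is a single UMI in the single OFF-marker cell of the second heterozygous retina. Nyx was too sparse to be kept by the filter, with 51.0 against 10.6 CPM over 94 UMIs, and Lrit3 had 2 UMIs. Without the filter Nyx was at 2.56 (SE 0.81; edgeR adjusted p = 0.057) and did not pass. All 7 calls held under every alternative run, but values moved with single retinas. Gpr179 was 6.288 without the second retina labelled knockout, Grm6 4.691 without the wild type, Prkca 5.111 without the wild type and Rgs11 1.133 without the wild type. Without the second heterozygous retina 359 genes were called in place of 235, and without the first retina labelled knockout 153.

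**Figure D3:**
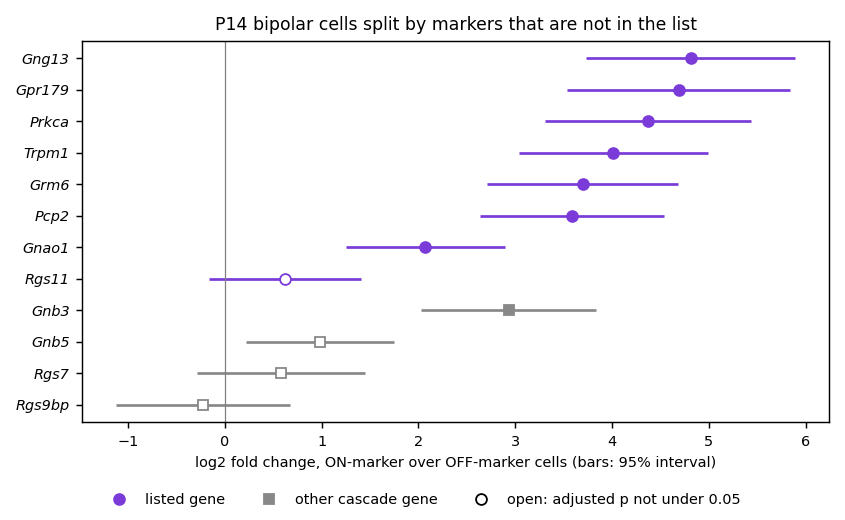
Log2 fold change of ON-marker over OFF-marker bipolar cells at P14 for the 8 tested members (circles) and 4 other genes of the cascade (squares), with 95% intervals; open symbols did not pass an adjusted p of 0.05. Of the members, 7 lie between 2.07 and 4.81 and Rgs11 lies at 0.62 with an interval that crosses 0.

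The rest of the cascade was taken from a list of 4 genes, of which 1 passed, higher in ON-marker cells. Gnb3, the β subunit that pairs with Gng13, was at 1157 against 179.7 CPM, a log2 difference of 2.93 (SE 0.46; edgeR adjusted p = 1.42e-08), and was also high in cones, at 2220.0 CPM when pooled over retinas. Gnb5, the β-like partner of RGS proteins, was at 0.98 (SE 0.39; edgeR adjusted p = 0.0991), Rgs7, the other RGS protein of the complex, at 0.58, and Rgs9bp, their membrane anchor, at -0.22. Of 8 presynaptic or cleft partners, 3 were tested in edgeR and 0 passed, with 0 at an unadjusted p under 0.05. Of the partners too sparse there to be tested, Elfn1, the rod adhesion protein that binds mGluR6, was at 80.1 CPM in rods, 77.2 in cones and 5.99 in bipolar cells, and Egflam (pikachurin) was at 124, 93.8 and 10.1. Among all genes, Ndnf (7.45) and Gng13 had the smallest adjusted p on the ON side and Ebf1 (-7.72) and Cntnap5a (-5.22) on the OFF side.

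Genotype was compared within bipolar cells from sums per retina with edgeR's quasi-likelihood test, in 1 fit of all 5 retinas. Against the wild type, 0 of 9 tested members passed in the retinas labelled knockout, where 0.091% of 8787 genes were called (8 genes, with 152 at an unadjusted p under 0.05). Against the heterozygous retinas, 0 of 9 passed with 0.137% called (12 genes, 303 unadjusted). No tested member had an unadjusted p under 0.05 or passed in DESeq2, which called 1 gene in each of these comparisons (18 and 39 unadjusted). The median log2 difference of the 9 was 0.06 against the wild type and -0.03 against the heterozygous retinas, beside 0.02 and 0.00 over all genes. Lrit3 was too sparse to be tested.

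Prkca had the largest positive value. From the levels above it was 0.45 higher on the log2 scale than in the wild type (SE 0.36; 95% interval -0.28 to 1.17; edgeR adjusted p = 1.00) and 0.51 higher than in the heterozygous retinas (SE 0.30; -0.08 to 1.10; edgeR adjusted p = 0.999). Its retinas labelled knockout lay above the other 3 without overlap, as did 7.34% of the 5215 genes with at least 100 UMIs in these cells, and the intervals include 0. Grm6 differed from the wild type by 0.10 (95% interval -0.60 to 0.80) and from the heterozygous retinas by 0.03 (-0.56 to 0.61). Trpm1 differed by 0.06 (-0.67 to 0.79) and by -0.03 (-0.63 to 0.57), and differences within these intervals were not detectable in this fit. The SE against the wild type was 0.37 for Trpm1 and 0.35 for Grm6, although their levels varied by only 2.46% and 4.47% between retinas. The width of these intervals is therefore not the spread of either gene alone. Nyx was at -0.41 and -0.09, Gpr179 at 0.31 and 0.18, Rgs11 at 0.12 and 0.29, Gnao1 at 0.02 and -0.11, Gng13 at -0.11 and -0.13 and Pcp2 at -0.27 and -0.08 in the same order.

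**Figure D4:**
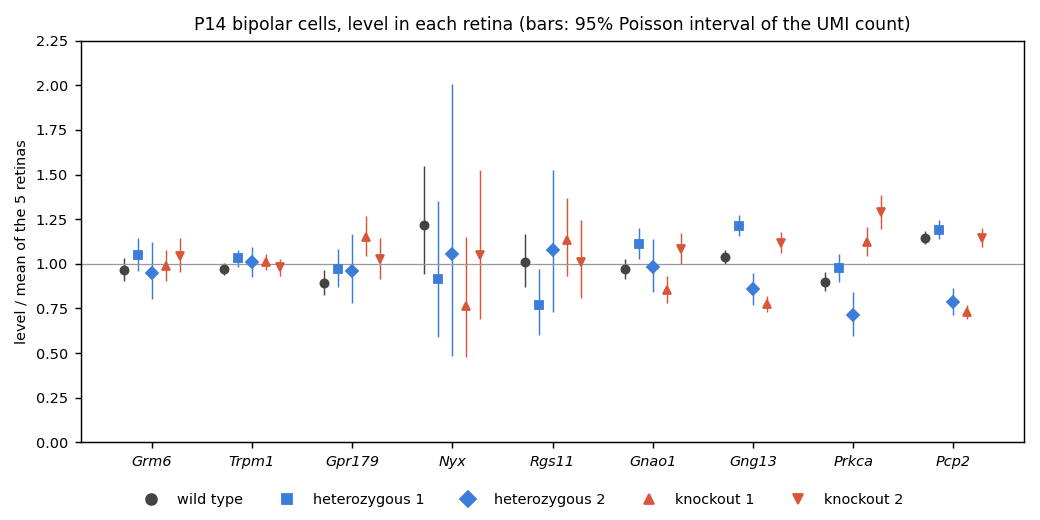
Level of 9 genes in P14 bipolar cells of each retina, divided by the mean of the 5 retinas (linear axis), coloured by genotype, with 95% Poisson intervals of the UMI count as bars. Trpm1 and Grm6 lie closest to 1 (coefficients of variation 2.46% and 4.47%), and Prkca and Pcp2 spread most among the 9 (21.9% and 22.3%).

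Other cells' markers in the bipolar cells also differed between retinas. Müller glia markers summed to 534 CPM in the wild type, 482 and 275 in heterozygous retinas and 1337 and 401 in those labelled knockout, and microglia markers to 132, 65.5, 32.3, 256 and 82.1, so the first retina labelled knockout was highest in both. That retina also had the lowest sum of ON markers, 1798 CPM against 1950 to 2285 in the others, and the highest of OFF markers, 359 against 179 to 285. Cone markers, a sum that includes Opn1sw, were highest in the wild type, at 280 CPM against 82.3 to 135 in the others. The first retina labelled knockout had the lowest Gng13 and Pcp2. Its bipolar cells were also the shallowest, at a median of 2697 UMIs against 4353 to 6214 in the other retinas. Marker classes set by single UMIs depend on depth. The part of depth, of other cells or of the ON share in these values was not tested. In ON-marker cells of that retina Pcp2 was at 1316 CPM, against 2409 to 3988 in the other retinas. In its cells with both kinds of marker Pcp2 was at 4096, within the 2297 to 4735 of the others. Without that retina, the log2 difference of Pcp2 was 0.013 against the wild type and 0.199 against the heterozygous retinas. Counts of called genes also turned on single retinas: leaving out each gave 10 to 22 against the wild type, the highest without the first labelled knockout, and 3 to 61 against the heterozygous retinas, lowest without the wild type and highest without the second labelled knockout.

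Genes with the smallest adjusted p in bipolar cells lay outside the pathway. Against the wild type these were Pttg1 (3.97) and Gm4792 (2.91) higher and Gm8797 (-3.70) and Opn1sw, the short-wave cone opsin (-2.46), lower in the retinas labelled knockout. Pttg1 rests on the low wild type, at 2.50 CPM there, 43.7 and 16.2 in heterozygous retinas and 36.5 and 46.4 in those labelled knockout. Gm4792 rests on 1 retina, at 18.4 CPM in the wild type and 11.1 and 269 in those labelled knockout, with the heterozygous at 275 and 318. Opn1sw was at 128 CPM in the wild type and at 18.5 to 48.5 in the others. The wild type was also highest in cone markers, but Opn1sw is itself 1 of the 5 genes in that sum. Against the heterozygous retinas they were the chemokine Ccl4 (3.95) and the complement gene C1qc (2.47), both microglial, and Xist (-8.08) and Tsix (-6.89). Ccl4 stood at 376 and 1.78 CPM with the label knockout, 16.8 and 0 in the heterozygous and 179 in the wild type, so it rests on the first retina labelled knockout, which was highest in microglia markers, and the second lay between the heterozygous ones. C1qc was at 118 and 46.4 against 18.5 and 5.39, with the wild type at 56.7. Xist was at 5187 CPM in the second heterozygous retina and at 3.57 to 40.3 in the others. For its own Xist difference in neurogenic cells, the study proposes the sex of the animals as the likely source. Nyx lies on chromosome X, and the part of sex in the comparison with the heterozygous retinas was not tested. Of the cascade list 0 of 4 passed in both comparisons, and of the presynaptic list 0 of 7 tested, by edgeR and with 0 at an unadjusted p under 0.05.

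Before bipolar cells are annotated, at P0 and in explants, the receptor and channel were at the edge of detection. Grm6 had 4 UMIs in all 5706 P0 cells and 1 in all 5607 explant cells, and Trpm1 had 22 and 7. Nyx had 7 and 1, Rgs11 40 and 12, and Gpr179 68 and 63. Neither library had an annotated bipolar type, and the bipolar markers summed highest in photoreceptors, at 913 CPM at P0 and 1626 CPM in explants. Each of these sums holds 7 of the 8 markers, since Vsx1 had no row at P0 and Gsg1 none in explants. Both include Otx2, which photoreceptors also use, so the sums do not tell bipolar cells from photoreceptors.

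Other members were already counted in other cell types. Pcp2 was highest in photoreceptors, at 54.1 CPM in the P0 wild type, 59.4 and 44.1 in heterozygous retinas and 30.3 and 56.3 in those labelled knockout, against 2.49 CPM in amacrine cells. In explant photoreceptors it was at 239 and 305 CPM at 0 nM, 213 and 279 at 5 nM, 281 and 205 at 50 nM and 293 and 197 at 500 nM. Explants therefore had a higher level, 251 ± 43.2 (SD, n = 8) against 48.8 ± 11.8 (SD, n = 5), without overlap, as did 12.1% of the 8935 genes with at least 100 UMIs in these cells, and library, culture and strain cannot be told apart in that difference. Gng13 showed the same order, 16.0 ± 7.45 CPM in P0 photoreceptors and 35.4 ± 6.95 in explant photoreceptors, again without overlap.

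Gnao1 had its highest level per UMI in cells annotated as retinal ganglion cells (RGCs), at 513 CPM in the P0 wild type, 546 and 503 in heterozygous retinas and 508 and 478 in those labelled knockout, with amacrine cells next at 153 ± 16.3 and photoreceptors at 57.8. By number, 36.0% of the 3243 Gnao1 UMIs at P0 came from those 85 cells and 39.1% from amacrine cells. In explants, 200 cells annotated as RGCs were at 232 ± 77.4 CPM and amacrine cells at 106 ± 11.3, with 10.4% and 45.6% of 1486 UMIs. The study describes its explants as lacking viable ganglion cells, so this annotation was checked with markers. Ganglion markers summed to 1251 CPM in the explant cells and 4027 CPM in the P0 ones, and amacrine markers to 1147 and 533 CPM, so the gap between the 2 marker sums was smaller in the explant cells. Prkca showed no such peak at P0, where type means ran from 11.1 CPM in amacrine cells to 16.8 in neurogenic progenitors, and in explants it was highest in primary progenitors at 33.4 ± 5.27. Lrit3 was highest in photoreceptors at both, 2.63 ± 0.661 CPM over 20 UMIs at P0 and 8.31 ± 3.27 over 43 UMIs in explants.

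**Figure D5:**
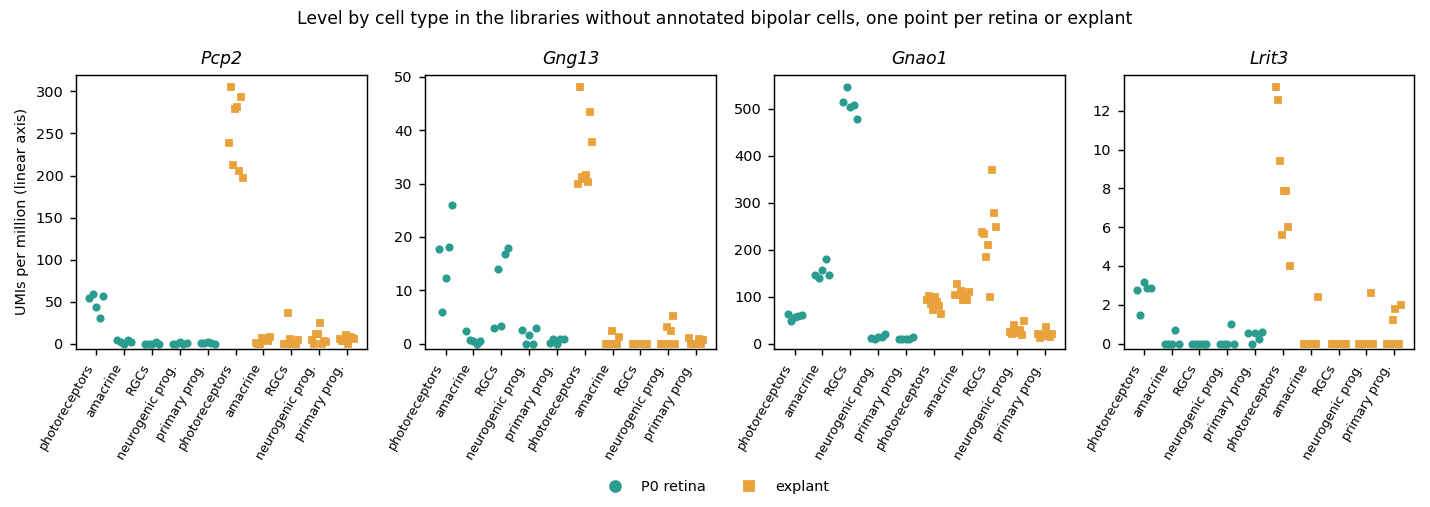
Level of Pcp2, Gng13, Gnao1 and Lrit3 in CPM (linear axes, 1 per gene) by cell type in P0 retinas (circles) and explants (squares), with 1 point per sample. Pcp2 and Gng13 points rise in photoreceptors (Pcp2 at 48.8 ± 11.8 and 251 ± 43.2) and Gnao1 points in the cells annotated as RGCs.

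Tests in these libraries were run with edgeR where members were counted, and DESeq2 passed none of the members tested there. In P0 photoreceptors, 0 of 4 members passed between retinas labelled knockout and heterozygous retinas, where 0.0592% of 10129 genes were called (6 genes), and 1 of the 4, Gng13, had an unadjusted p under 0.05. Gng13 was at 18.0 and 26.0 CPM in the retinas labelled knockout against 5.94 and 12.2 in the heterozygous, with the wild type at 17.8, a log2 difference of 1.31 (SE 0.37; 95% interval 0.51 to 2.12; edgeR adjusted p = 0.435). The wild type lay just below the lower retina labelled knockout and above both heterozygous ones. Without the filter on low counts the log2 difference passed (1.30; edgeR adjusted p = 0.025), where 120 of 16091 genes were called. In explant photoreceptors, 0 of 4 passed between 500 and 0 nM with 0.0941% of 7440 genes called (7 genes) and 0 members at an unadjusted p under 0.05, and Pcp2 was at -0.06 (-0.35 to 0.24). Lrit3 was at 13.2 and 12.5 CPM at 0 nM, 9.39 and 5.60 at 5 nM, 7.89 and 7.88 at 50 nM and 5.98 and 3.97 at 500 nM there, but on 43 UMIs it was tested only without the filter (-1.32, SE 0.64; edgeR unadjusted p = 0.0394, adjusted p = 1.00).

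In amacrine cells, 0 of 2 members passed at P0 (0.0386% of 10373 genes called) and 0 of 2 in explants (0.269% of 8188), with 0 at an unadjusted p under 0.05 in both. Gnao1 was at 0.15 and -0.14 and Prkca at 0.19 and 0.69 on the log2 scale in the same order. Pcp2 was too sparse to be kept by the filter in explant amacrine cells, with 21 UMIs. Without the filter it was at 3.24 there (SE 1.19; edgeR unadjusted p = 0.0063, adjusted p = 0.693) and did not pass. The cascade gene Gnb3 passed in explant amacrine cells, at 17.9 and 12 CPM at 0 nM, 9.47 and 34.0 at 5 nM, 27.3 and 28.8 at 50 nM and 50.1 and 35.7 at 500 nM (1.38, SE 0.31; edgeR adjusted p = 0.0225). It lost that call in DESeq2 (adjusted p = 1.00) and without the first or second 0 nM or the first 500 nM explant (edgeR adjusted p = 0.15, 0.107 and 0.5). Rod and cone markers in those cells summed to 19.7 and 11.3, and 29.2 and 3.44 CPM in the 0 nM explants and to 33.4 and 32.1, and 58.3 and 17.8 in the 500 nM explants. Gnb3 is abundant in explant photoreceptors, at 1184 CPM, and their part in this value was not tested. Among all genes, Xist rose and the Y-linked Eif2s3y and Ddx3y fell at 500 nM in both explant cell types. In explant amacrine cells Eif2s3y was at 52.4 and 49.9 CPM at 0 nM and at 1.28 and 0 at 500 nM. Between them it did not follow the dose, at 0 and 41.3 CPM at 5 nM and 25.2 and 35.4 at 50 nM. In the comparison of 500 with 0 nM, the sex of the embryos and the dose cannot be told apart. The remaining genes with the smallest adjusted p were Lyz2 (3.70, explant amacrine cells), Ccnd1 (1.12, explant photoreceptors, at 114 and 296 CPM at 500 nM against 88.0 and 96.1 at 0 nM), Isl1 (1.72) and Fabp7 (-1.03) in P0 amacrine cells, Gngt2 (0.88), Ypel3 (0.74) and Hes1 (-0.94) in P0 photoreceptors, and Gm8797 in both P0 types (-4.14 and -4.01).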

How the data were processed

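Retinas and explants were dissociated with papain, tagged by MULTI-seq, pooled and run on the 10x Chromium 3′ v3.0 assay. Per the submitters' processing notes the authors used Cell Ranger 3.1.0 with mm10 and Seurat 3, and per the study's methods they assigned samples with deMULTIplex and named cell types from cluster markers. What was used here is the raw matrix the authors deposited, UMI counts by gene and cell, with its sample and cell type columns, and the normalized (SCT) matrices and all other cell type questions were not used here. The filters on cells, and whether doublets were removed before deposit, are not given in the sources used here.

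For each sample and cell type the cells were added up, and CPM were taken of that sum. Shares of cells were computed after thinning each cell to 1500 UMIs by random draws, leaving out shallower cells. Sums were tested with edgeR 4.0.16 (filterByExpr, TMM, glmQLFit and glmQLFTest, Benjamini-Hochberg over all genes tested, threshold 0.05), in 1 fit per cell type with genotype or dose as a factor. The lone wild type adds nothing to the dispersion. Standard errors were the log2 value over the root of F. DESeq2 1.42.0, its size factors, no filter and leaving out each sample were alternatives. Scripts were tested on simulated data. Poisson intervals and limits at 3 counts cover counting error only. Scrublet (scanpy 1.11.5) marked 2 of 3298 P14 cells (0.0606%), taken as a failed call, so no cell was removed, and leaving out the 177 cells with the highest scores, 48 of them bipolar, was added after the data were seen. Other tools were Python 3.11.15, numpy 2.4.6, scipy 1.17.1, pandas 2.3.3, matplotlib 3.10.9 and R 4.3.3.

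Some bipolar and rod markers of the lists are not reported here and were left out of the marker sums. The 10 genes and all lists were chosen with earlier results of these data known. Genes named beside them were 4 genes of the cascade, 8 presynaptic or cleft partners, the 3 genes of closest profile per member (at least 100 UMIs at P14, sums of at least 20000 UMIs) and, per comparison, the 2 genes of smallest adjusted p in each direction. The photoreceptor comparisons were added after seeing where Pcp2 and Gng13 were counted.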

Additional observations from a re-analysis of the deposited data

How the results depend on the processing

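Counts of called genes moved by over 1.5 times under several alternatives. With DESeq2, both P14 genotype comparisons fell to 1 gene (from 8 against the wild type and 12 against the heterozygous retinas) and the explant comparisons to 0 (from 22 in amacrine cells and 7 in photoreceptors, with 61 and 42 at an unadjusted p under 0.05). Without the filter, 19 genes were called against the heterozygous retinas, 374 between ON-marker and OFF-marker cells, 59 in P0 amacrine cells, 39 in explant amacrine cells, 120 in P0 photoreceptors and 12 in explant photoreceptors. Among alternatives chosen after seeing the data, ON-marker cells alone gave 4 and 32 genes for the P14 genotype comparisons, and leaving out the highest Scrublet scores gave 5 against the wild type. Leaving out each sample gave 10 to 22 and 3 to 61 for those comparisons, 153 to 359 for ON-marker against OFF-marker cells, 4 to 67 and 18 to 35 in P0 and explant amacrine cells, and 5 to 88 and 4 to 22 in P0 and explant photoreceptors. The samples behind moves of over 1.5 times, with the count without each, were the first (22) and second (21) labelled knockout against the wild type, and the wild type (3), second heterozygous (7) and second labelled knockout (61) against the heterozygous retinas. At P0 they were the first and second heterozygous (13, 31) and the first and second labelled knockout (52, 67) in amacrine cells, and the first heterozygous (25) and both labelled knockout (88, 16) in photoreceptors. In explants they were both at 5 nM (35 each) in amacrine cells and the first at 0 nM (4) and at 500 nM (22) in photoreceptors.

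Of 174 log2 values of named genes under the other alternatives, 167 kept direction and side of the threshold, and of 212 with a sample left out, 189 did. Those that turned direction were small and uncalled. Against the wild type, leaving out the highest Scrublet scores gave -0.008 for Grm6, -0.001 for Trpm1 and -0.05 for Gnao1, and no filter gave -0.015 for Gnao1. Against the heterozygous retinas, ON-marker cells alone gave 0.061 for Nyx. With a sample left out, values against the wild type spanned -0.143 to 0.174 for Gnao1, -0.386 to 0.12 for Gng13 and -0.613 to 0.013 for Pcp2. Against the heterozygous retinas they spanned -0.045 to 0.111 for Grm6, -0.063 to 0.005 for Trpm1, -0.311 to 0.124 for Nyx, -0.281 to 0.037 for Gnao1, -0.408 to 0.153 for Gng13 and -0.427 to 0.263 for Pcp2. At P0 they spanned -0.001 to 0.289 for Gnao1 and -0.349 to 0.628 for Prkca in amacrine cells and -0.75 to 0.115 for Pcp2 in photoreceptors, and in explant photoreceptors -0.206 to 0.451 for Gng13 and -0.393 to 0.172 for Pcp2. Prkca at P14 stayed positive, at 0.36 to 0.584 against the wild type and 0.304 to 0.776 against the heterozygous retinas. The wild type could not be left out of its own comparison, and a lone remaining sample is assumed to vary like the others. Nyx, Lrit3 and Rgs11 are the members that depth limits most.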
